A study of Mus musculus with 6 samples.

Results

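Whole blood of mice after environmental enrichment (EE) or standard housing (SE) was examined for 10 genes of lipid mediator and formyl peptide signalling: the ligand Anxa1, the receptors Fpr1, Fpr2, Ptafr and Ltb4r1, the leukotriene genes Alox5, Alox5ap and Lta4h, and the enzymes Alox12 and Ptgs1. They were chosen by name, with no minimum on their level, and were read from each array probe set (a group of probes summarised as 1 value) whose annotation gave that gene symbol and no other. This gave 10 of the 41345 probe sets on the array, for 8 of the 10 genes, with 2 probe sets each for Alox5 and Alox5ap. Fpr1 and Ptgs1 had no probe set named for them alone and were not analysed here. The EE group was 3 outbred male CD1 mice kept for 2 weeks in a larger enclosure with a wheel, a nest house, a tunnel and extra nesting material. The SE group was 3 outbred male CD1 mice kept for 2 weeks in a standard laboratory enclosure. All 6 mice were 9 weeks old by their labels, which name no engineered allele, and had received no inflammatory insult, and their blood was drawn by cardiac puncture. Mice were kept in groups, and which of them shared an enclosure is not given in the sources used here, so enclosure and housing condition cannot be told apart.

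White blood cells are guided to sites of infection by small molecules as well as by chemokines. Formyl peptides, shed by bacteria and by damaged mitochondria, are sensed by the formyl peptide receptors, and the same receptor family binds annexin A1, a protein of myeloid cells known for limiting neutrophil recruitment. Arachidonic acid released from membranes is turned by 5-lipoxygenase, with the help of its activating protein, into leukotriene A4, which leukotriene A4 hydrolase converts to the neutrophil attractant leukotriene B4, while platelets use their own 12-lipoxygenase and platelet-activating factor (PAF) acts through a receptor of its own.

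The genomic start regions are shown for 3 genes that stand out in the results below, none of which uses the sequences. Anxa1 and its receptor Fpr2 had the largest log2 differences of the 10 probe sets, and Alox12 varied from mouse to mouse much as platelet markers did. Each sequence is from RefSeq (GRCm38.p6), covers 250 bases before and 50 after the annotated start of the gene, and runs 5′ to 3′ on the gene's strand. Capitals mark a TATA box (TATAAA) in Anxa1, at chr19:20390622-20390921 on the minus strand, and in Fpr2, at chr17:17887574-17887873 on the plus strand, and a GC box of the Sp1 type (GGGCGG) in Alox12, at chr11:70255321-70255620 on the minus strand.
Anxa1: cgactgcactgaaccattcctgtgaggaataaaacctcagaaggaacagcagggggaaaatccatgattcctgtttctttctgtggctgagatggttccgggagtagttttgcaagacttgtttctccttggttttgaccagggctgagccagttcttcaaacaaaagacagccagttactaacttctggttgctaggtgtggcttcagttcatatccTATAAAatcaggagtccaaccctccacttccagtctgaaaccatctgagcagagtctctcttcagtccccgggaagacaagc
Fpr2: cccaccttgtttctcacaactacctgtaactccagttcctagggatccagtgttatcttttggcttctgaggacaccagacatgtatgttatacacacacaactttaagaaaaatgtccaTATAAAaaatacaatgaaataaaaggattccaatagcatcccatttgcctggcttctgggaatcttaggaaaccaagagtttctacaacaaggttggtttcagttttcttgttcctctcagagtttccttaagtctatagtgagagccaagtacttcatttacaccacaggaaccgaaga
Alox12: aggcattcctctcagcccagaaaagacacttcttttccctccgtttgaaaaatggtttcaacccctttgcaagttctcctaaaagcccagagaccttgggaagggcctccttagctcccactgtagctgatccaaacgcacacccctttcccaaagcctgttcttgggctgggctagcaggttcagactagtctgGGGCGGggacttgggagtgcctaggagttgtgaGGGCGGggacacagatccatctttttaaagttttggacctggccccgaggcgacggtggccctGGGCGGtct
The TATAAA of Anxa1 lay 32 to 27 bases upstream of the start, whereas that of Fpr2 lay 130 to 125 bases upstream. Alox12 held GGGCGG in 3 places, 2 of them upstream of the start, and no TATAAA. Of the 10 genes, 9 had such an entry, and the search also covered GAGGAAGT, an ETS core of the type that the myeloid factor PU.1 binds; all 3 motifs were read on both strands and no match overlapped another. Single GC boxes stood in the windows of Ptafr, Ltb4r1 and Alox5, GAGGAAGT in those of Ltb4r1 and Ptgs1, and TATAAA also in that of Fpr1, while the Lta4h window held none of the 3. TATAAA was present in 13.6%, GGGCGG in 35.7% and GAGGAAGT in 3.2% of all 32851 windows of this length, and these matches are descriptions of letters only.

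Anxa1, which encodes annexin A1, was the 1 gene of the set whose EE values all lay above its SE values. It read 7.51, 7.57 and 7.00 in EE mice 1, 2 and 3, against 6.83, 6.94 and 6.46 in SE mice 1, 2 and 3 (log2 values after RMA, the authors' normalization). In each group the third mouse was the lowest, and the gap between the lowest EE value and the highest SE value was 0.06. The means were 7.36 ± 0.32 in EE and 6.74 ± 0.25 in SE (SD, n = 3 each), a log2 fold change of 0.62 (standard error 0.20, 95% interval 0.14 to 1.09), or 1.53-fold (limma, unadjusted p = 0.0179, Benjamini-Hochberg adjusted p = 0.9999 over all probe sets). Anxa1 therefore passed the unadjusted threshold and not the adjusted one. The unadjusted limma p rose above 0.05 without EE mouse 1 (0.0589), without EE mouse 2 (0.0616) and without SE mouse 3 (0.0625), with log2 fold changes of 0.54, 0.51 and 0.47.

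**Figure D1:**
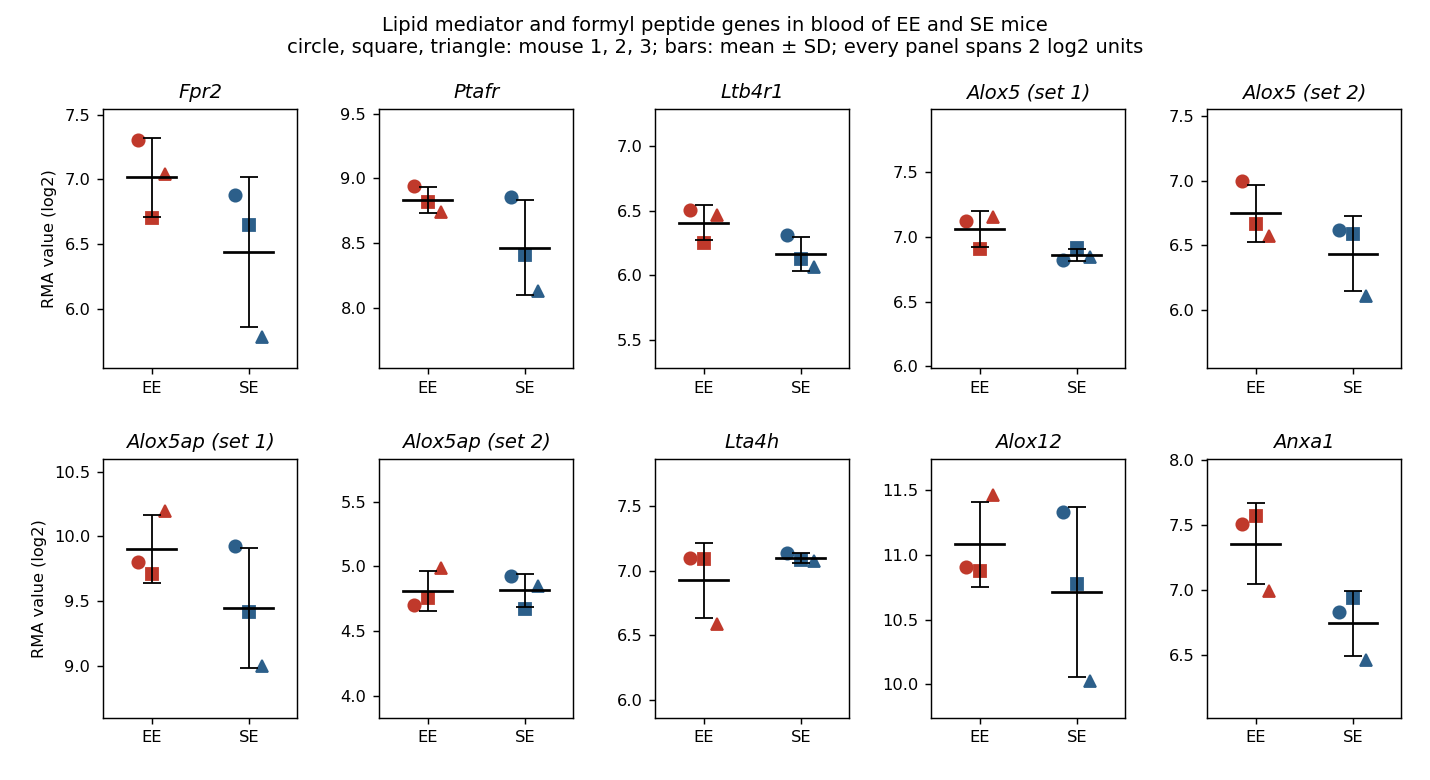
RMA log2 value (vertical axis) of each of the 10 probe sets in EE mice (red, left) and SE mice (blue, right), with circles, squares and triangles for mouse 1, 2 and 3 and bars for the mean ± SD; every panel spans 2 log2 units. Anxa1 is the panel without overlap between the groups, and the blue triangle (SE mouse 3) is the lowest point in 7 of the 10 panels.

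Among the receptors, Fpr2, Ptafr and Ltb4r1 all had higher means in EE than in SE mice, each with overlapping groups and an unadjusted p between 0.0942 and 0.102. Fpr2, a mouse receptor for formyl peptides and annexin A1, read 7.31, 6.70 and 7.04 in EE mice 1, 2 and 3, against 6.88, 6.65 and 5.78 in SE mice 1, 2 and 3. SE mouse 3 was far below the other 5 mice, and SE mouse 1 was above EE mouse 2. The log2 fold change was 0.58 (standard error 0.30, 95% interval -0.13 to 1.29, limma unadjusted p = 0.0945), from 7.02 ± 0.30 in EE and 6.44 ± 0.58 in SE (SD, n = 3 each). Without SE mouse 3 it was 0.25, and without SE mouse 1 it was 0.80 (limma, unadjusted p = 0.0384). The Fpr genes are near copies of each other, and whether the Fpr2 probes also bind transcripts of its relatives was not tested.

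Ptafr, the receptor for PAF, read 8.94, 8.82 and 8.74 in EE mice 1, 2 and 3, against 8.86, 8.41 and 8.13 in SE mice 1, 2 and 3. The EE mice lay close together, the SE mice were spread over a wider range, and SE mouse 1 stood among the EE mice. The means were 8.83 ± 0.10 in EE and 8.46 ± 0.37 in SE (SD, n = 3 each), a log2 fold change of 0.37 (standard error 0.19, 95% interval -0.08 to 0.82, limma unadjusted p = 0.0942). Without SE mouse 1 it was 0.57 (limma, unadjusted p = 0.00859), and without SE mouse 3 it was 0.20. With each array weighted by how closely it followed its group in these data (limma's array weights), it was 0.45 with an unadjusted limma p of 0.0324.

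Ltb4r1, the high-affinity receptor for leukotriene B4, read 6.50, 6.25 and 6.47 in EE mice 1, 2 and 3, against 6.31, 6.12 and 6.06 in SE mice 1, 2 and 3. Only EE mouse 2 fell within the range of the SE mice. The difference between the group means was 0.24 on the log2 scale (standard error 0.13, 95% interval -0.06 to 0.54, limma unadjusted p = 0.102). Its mean over the 6 mice on the linear scale, 78.1, was below the level of 100 that the study's methods set as a minimum.

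The leukotriene genes gave no call in either direction. Alox5, which makes leukotriene A4 from arachidonic acid, had 2 probe sets. The first read 7.12, 6.90 and 7.15 in EE mice 1, 2 and 3, against 6.82, 6.91 and 6.85 in SE mice 1, 2 and 3, a log2 fold change of 0.20 (standard error 0.12, limma unadjusted p = 0.128). The second read 7.00, 6.67 and 6.57 in EE mice 1, 2 and 3, against 6.62, 6.59 and 6.10 in SE mice 1, 2 and 3, a log2 fold change of 0.31 (standard error 0.19, limma unadjusted p = 0.139). Both had a higher EE mean with overlapping groups, but they ordered the mice differently: EE mouse 3 was the highest of the 6 mice in the first set and below 2 of the SE mice in the second.

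Alox5ap, the 5-lipoxygenase activating protein that presents arachidonic acid to the enzyme, also had 2 probe sets. The first read 9.80, 9.71 and 10.20 in EE mice 1, 2 and 3, against 9.92, 9.41 and 9.00 in SE mice 1, 2 and 3. SE mouse 1 lay above 2 of the 3 EE mice, and EE mouse 3 and SE mouse 3 were the extremes. The log2 fold change was 0.46 (standard error 0.25, 95% interval -0.13 to 1.05, limma unadjusted p = 0.11), and leaving out SE mouse 1 raised it to 0.69 (limma, unadjusted p = 0.0166), against 0.23 without SE mouse 3. The second read 4.70, 4.75 and 4.99 in EE mice 1, 2 and 3, against 4.92, 4.67 and 4.85 in SE mice 1, 2 and 3, with a linear mean of 28.1 that is well under the minimum of 100 and a log2 fold change of -0.0032 (standard error 0.13, limma unadjusted p = 0.981).

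Lta4h, leukotriene A4 hydrolase, was the 1 gene above the minimum with a lower mean in EE than in SE mice. It read 7.09, 7.09 and 6.59 in EE mice 1, 2 and 3, against 7.14, 7.08 and 7.07 in SE mice 1, 2 and 3. Of the 6 mice, 5 lay within a narrow band and EE mouse 3 alone was low. The log2 fold change was -0.17 (standard error 0.16, 95% interval -0.55 to 0.21, limma unadjusted p = 0.318), and without EE mouse 3 it was -0.0054.

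Alox12, the 12-lipoxygenase of platelets, had the widest interval of the 10 probe sets. It read 10.91, 10.87 and 11.46 in EE mice 1, 2 and 3, against 11.33, 10.77 and 10.02 in SE mice 1, 2 and 3. EE mouse 3 was the highest and SE mouse 3 the lowest, while SE mouse 1 was above both of the remaining EE mice. The log2 fold change was 0.37 (standard error 0.33, 95% interval -0.41 to 1.16, limma unadjusted p = 0.301). It ranged from 0.03 without SE mouse 3 to 0.68 without SE mouse 1.

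Across the set, 8 of the 10 probe sets had a positive log2 fold change, where 20002 of all 41345 probe sets did. The median of the 10 was 0.34, against -0.0063 over all probe sets. The 10 stand for 8 genes, and some varied together over the mice (r = 0.97 for Alox12 and the first Alox5ap set), so their signs are not independent. At an unadjusted p under 0.05, 1 of 10 was higher in EE and 0 of 10 were lower (limma), where 1.45% of all probe sets were higher and 2.3% lower. In 1 of 10 every EE mouse was above every SE mouse, a pattern found in 3.76% of all probe sets, and in 0 of 10 every EE mouse was below, against 4.61% of all. After Benjamini-Hochberg adjustment 0% of all probe sets were called, and the adjusted limma p was 0.9999 for each of the 10. A count of 1 among 10 is the smallest that could exceed these shares. None of the 10 passed a 2-fold change with an unadjusted p under 0.05 (limma), the thresholds of the study's methods, which 71 of all 41345 probe sets did. The study set these thresholds on the genes left by its filters, so 71 is not its own count. The p-values measure the spread between these mice only.

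**Figure D2:**
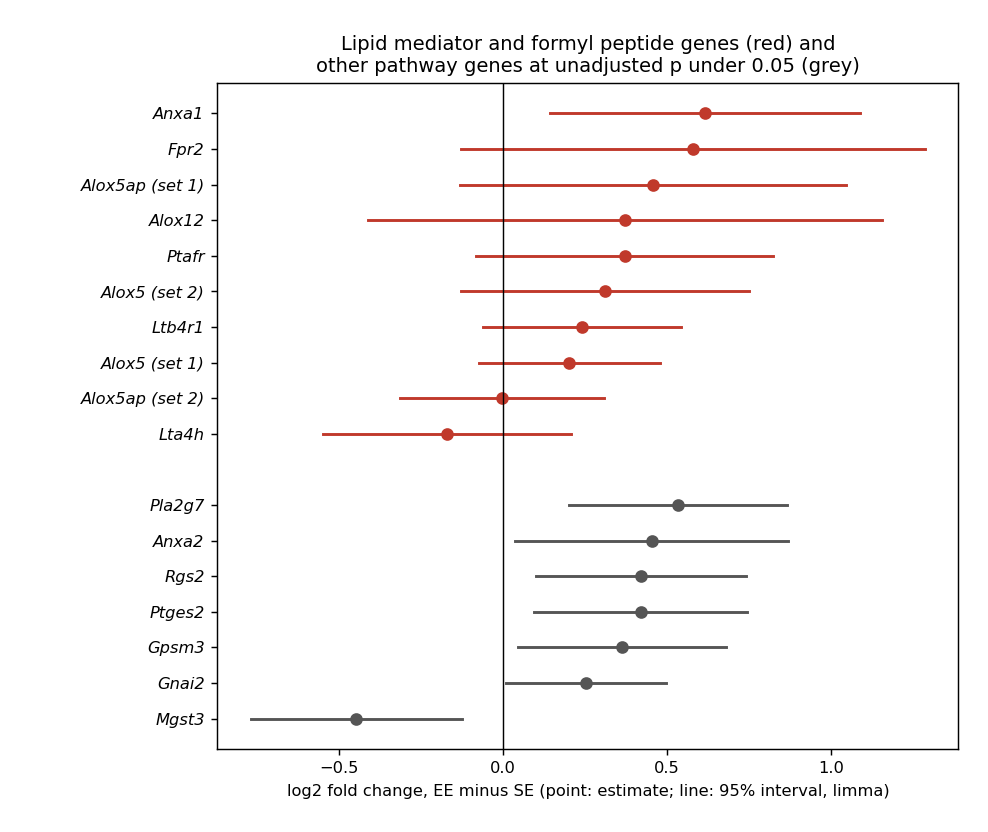
Log2 fold change, EE minus SE (horizontal axis), with its 95% limma interval (line) for the 10 probe sets (red) and for the 7 other pathway genes at an unadjusted p under 0.05 (grey). The interval of Anxa1 (0.14 to 1.09) is the only red one that does not include 0.

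The mice did not contribute evenly. SE mouse 3 was the lowest of the 6 mice in 7 of the 10 probe sets, EE mouse 1 was the highest in 4 and EE mouse 3 was the highest in 4 and the lowest in 1. Whole blood is a mixture, so levels of markers of its cell types were set beside these genes. Of 12 neutrophil markers, 6 were higher in EE at an unadjusted p under 0.05 (limma) and 10 had a positive log2 fold change, with a median of 0.56. The first 2 of the list were Csf3r, the receptor for the growth factor of granulocytes, with 0.61, and Cxcr2, a chemokine receptor, with 0.62. Their linear values summed over the list ranged from 5803 to 6999 in EE mice, against 3816 to 4564 in SE mice. The 9 platelet markers, of which Itga2b (0.31) and Pf4 (0.22) came first in the list, all had positive log2 fold changes with none called, and their sum ranged from 25391 to 30361 in EE mice, against 19353 to 28984 in SE mice.

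The other lists of markers gave 1 of 10 monocyte genes higher in EE, 4 of 5 red cell genes lower, 1 of 9 eosinophil, basophil and mast cell genes lower, and none called among 7 B cell, 7 T cell, 7 NK cell and 5 heart muscle genes (limma, unadjusted). No heart muscle gene and no eosinophil, basophil or mast cell gene had a mean at or above the minimum of 100. EE mouse 3 was the lowest of the 6 mice in all 7 B cell genes and in 6 of 7 T cell genes, and the highest in 8 of 10 monocyte genes and 6 of 9 platelet genes. It also correlated least with the other arrays (mean r = 0.968 over all probe sets, against 0.978 to 0.981 for the other 5 mice). In whole blood, fewer cells of a type and less RNA per cell cannot be told apart.

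Alox12 and the first Alox5ap probe set varied over the mice much as the platelet markers did. The median platelet marker stood at -0.10, 0.06 and 0.43 in EE mice 1, 2 and 3, against 0.21, -0.12 and -0.59 in SE mice 1, 2 and 3, each gene being centred on its own mean over the 6 mice. With this median taken off mouse by mouse, the range of Alox12 over the 6 mice was 0.51 in place of 1.44, and its EE minus SE difference was 0.08 in place of 0.37. For the first Alox5ap probe set the range was 0.36 in place of 1.20 and the difference 0.16 in place of 0.46. The monocyte markers varied in a similar way, with a median of 0.02, -0.11 and 0.54 in EE mice 1, 2 and 3, against 0.08, -0.08 and -0.33 in SE mice 1, 2 and 3. With the monocyte median taken off, the range was 0.90 for Alox12 and 0.51 for the first Alox5ap set. The platelet subtraction also narrowed the range, by less, for Fpr2 (1.04 in place of 1.52), Anxa1 (1.04 in place of 1.11) and Ptafr (0.73 in place of 0.81). The monocyte subtraction narrowed it for Fpr2 (1.18) and Ptafr (0.72) and widened it for Anxa1 (1.23). Both subtractions widened it for Lta4h, Ltb4r1, both Alox5 sets and the second Alox5ap set. Alox12 and the first Alox5ap set were also close to each other. The root mean square difference between their centred values over the 6 mice was 0.14. These are descriptions over the 6 mice, and the part of platelets or monocytes in either gene was not tested.

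**Figure D3:**
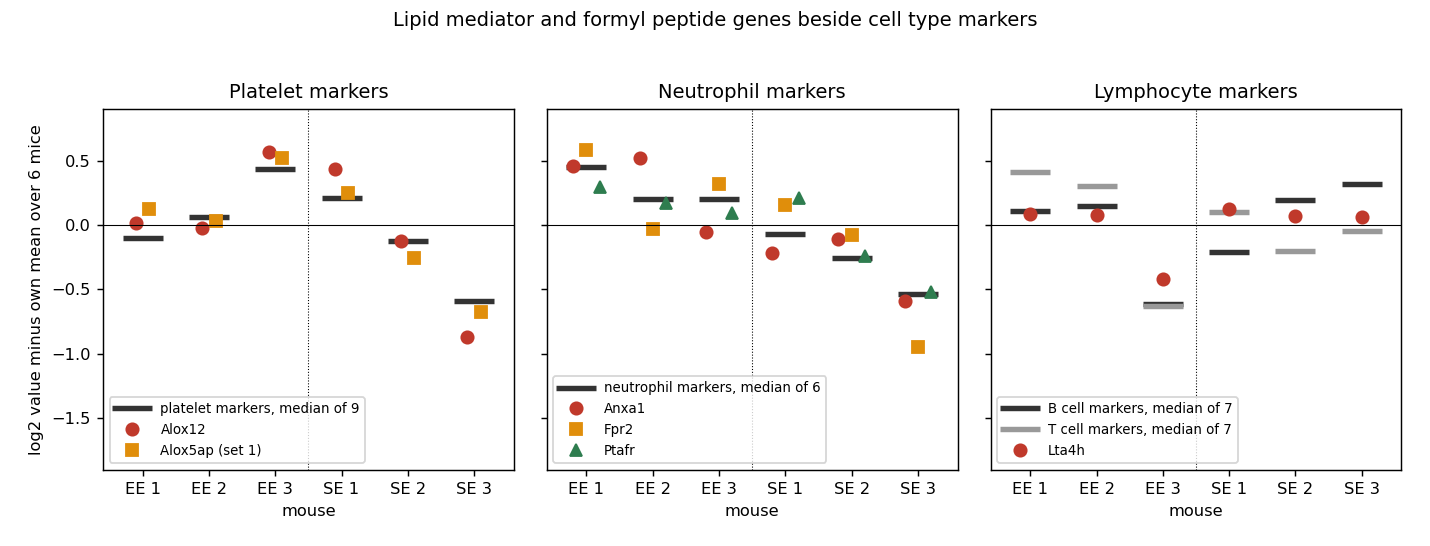
Centred log2 value (vertical axis: value minus the gene's own mean over the 6 mice) of 6 of the probe sets (symbols) and the median of the markers of a cell type (dashes) in EE mice 1 to 3 (left) and SE mice 1 to 3 (right). The widest gap from the platelet dashes is -0.28 for Alox12 (SE mouse 3) and 0.23 for the first Alox5ap set (EE mouse 1). For Ptafr the widest gap from the neutrophil dashes is 0.28, in SE mouse 1. Lta4h shares the low value of both lymphocyte lists in EE mouse 3.

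The neutrophil markers separated the groups in their median, but not each by itself. Of the 12, 6 had every EE mouse above every SE mouse. Camp (log2 fold change -0.17) and Ltf (-0.0088) had lower means in EE, and both were under the minimum. Retnlg and Lcn2, which were above it, had overlapping groups. The median of the 6 neutrophil markers above the minimum was 0.45, 0.20 and 0.20 in EE mice 1, 2 and 3, against -0.07, -0.26 and -0.54 in SE mice 1, 2 and 3, so that the EE mice were all above the SE mice. With that median taken off, Anxa1 read 0.0025, 0.32 and -0.25 in EE mice 1, 2 and 3, against -0.15, 0.15 and -0.06 in SE mice 1, 2 and 3. The groups then overlapped, the difference was 0.04 in place of 0.62, and the range over the 6 mice was 0.57 in place of 1.11. The range was 0.63 in place of 1.52 for Fpr2, 0.44 in place of 0.81 for Ptafr and 0.47 in place of 0.89 for the second Alox5 set. It was also narrower for the first Alox5ap set (0.65 in place of 1.20) and Alox12 (0.95 in place of 1.44), set beside platelet markers above. It was wider after the subtraction for Lta4h (1.22 in place of 0.55), Ltb4r1 (0.55 in place of 0.44), the first Alox5 set (0.71 in place of 0.34) and the second Alox5ap set (1.14 in place of 0.31). Every EE mouse was then below every SE mouse for Lta4h (EE minus SE difference -0.74), the second Alox5ap set (-0.58), Ltb4r1 (-0.33), the second Alox5 set (-0.26) and Ptafr (-0.20). The groups overlapped for Fpr2, Alox12 and the first sets of Alox5 and Alox5ap, as for Anxa1. The subtraction takes the same amount off the group difference of every gene, so the genes keep the order of their differences. The fall in the difference of Anxa1 is therefore set by the markers and is no result about Anxa1. The part that neutrophils played in the differences of the 10 probe sets was not tested.

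The genes nearest to each of these in profile were found among 5739 or 5740 probe sets at or above the minimum, by the root mean square difference of centred log2 values over the 6 mice. Nearest to Anxa1 were Cd33 (0.12), Igsf6 (0.13) and Clec7a (0.16), and nearest to Fpr2 were Slpi (0.14), Ccl3 (0.15) and Il13ra1 (0.18). Ptafr was nearest to Mcemp1 (0.05), Rab1b (0.09) and Myd88 (0.09). Clec7a encodes the fungal glucan receptor dectin-1, Slpi a secreted inhibitor of neutrophil proteases, Ccl3 a chemokine and Myd88 the adaptor of Toll-like receptors. Ltb4r1 was nearest to Pik3r5 (0.03), Pxn (0.04) and Septin9 (0.04), the first Alox5 set to Myh9 (0.04), Dctn5 (0.04) and Stim1 (0.04), and the second Alox5 set to Pglyrp1 (0.04), Cited2 (0.06) and Cotl1 (0.06). Lta4h was nearest to Dazap1 (0.03), Ddx56 (0.03) and Ankhd1 (0.03), the first Alox5ap set to Ctsd (0.05), Bean1 (0.06) and Card19 (0.07), and Alox12 to Ccdc92 (0.05), Gm1968 (0.07) and Gpx4 (0.07). The second Alox5ap set, under the minimum, was nearest to Chmp4b (0.03), Wfdc10 (0.03) and Ddx39b (0.04). A small difference is easier to reach for a gene that varies little, and the SD over the 6 mice was 0.13 for that set and 0.52 for Fpr2.

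The wider pathway was read from 95 further genes in 9 lists, of which 84 had a probe set of their own (the one with the highest mean was used). Of the 84, 55 had a positive and 29 a negative log2 fold change, with a median of 0.05, and 6 were higher and 1 lower in EE at an unadjusted p under 0.05 (limma), where 1.45% and 2.3% of all probe sets were. Every EE mouse was above every SE mouse in 8 and below in 1, where 3.76% and 4.61% of all probe sets were, and the adjusted p was 0.9999 for all of them. The 6 higher genes lay in 4 of the lists.

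In PAF metabolism, 1 of 6 measured genes was higher in EE and none lower. This was Pla2g7, the plasma form of PAF acetylhydrolase, which inactivates PAF. It read 8.22, 7.96 and 7.96 in EE mice 1, 2 and 3, against 7.61, 7.62 and 7.32 in SE mice 1, 2 and 3. No SE mouse reached any EE mouse, and the log2 fold change of 0.53 (standard error 0.14, limma unadjusted p = 0.00671) was the largest of the 84.

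Among the other annexins and their S100 partners, 1 of 8 was higher and 7 of 8 had a positive log2 fold change, with a median of 0.17. Anxa2, which binds membranes and pairs with the S100 protein p11, read 7.66, 7.66 and 7.74 in EE mice 1, 2 and 3, against 7.35, 7.50 and 6.86 in SE mice 1, 2 and 3. The EE mice were nearly equal, SE mouse 3 was the lowest, and the groups did not overlap. The log2 fold change was 0.45 (standard error 0.18, limma unadjusted p = 0.0368).

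Of 18 measured genes that signal below chemoattractant receptors, 3 were higher and none lower, and 14 had a positive log2 fold change. Rgs2, which shortens signalling by G proteins, read 9.31, 9.33 and 9.19 in EE mice 1, 2 and 3, against 9.00, 8.94 and 8.63 in SE mice 1, 2 and 3 (log2 fold change 0.42, limma unadjusted p = 0.0169). Gpsm3, a regulator that binds inhibitory G protein subunits, had a log2 fold change of 0.36 (limma, unadjusted p = 0.0304). Gnai2, the inhibitory G protein subunit through which most chemoattractant receptors of leukocytes signal, had 0.25 (limma, unadjusted p = 0.0442), the smallest of the 3. In each of the 3 genes all EE mice lay above all SE mice.

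Mgst3, a membrane enzyme that can make leukotriene C4, was the 1 gene of the 84 called lower. It read 6.11, 5.94 and 6.28 in EE mice 1, 2 and 3, against 6.56, 6.69 and 6.42 in SE mice 1, 2 and 3, a log2 fold change of -0.45 (standard error 0.14, limma unadjusted p = 0.013). All EE mice were below all SE mice, although its linear mean of 80.5 was under the minimum. It was the only call among the 14 measured genes of the other lipoxygenases and leukotriene enzymes, of which 7 had a positive and 7 a negative log2 fold change.

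Ptges2, a prostaglandin E synthase, was the only call among 10 other prostanoid enzymes, with a log2 fold change of 0.42 (limma, unadjusted p = 0.0187) at a linear mean of 37.0, under the minimum. The remaining 4 lists had no call, and the gene with the smallest unadjusted p is given for each. It was Tbxa2r, the thromboxane receptor, among 7 prostanoid receptors (0.25, limma unadjusted p = 0.0674, all EE mice above all SE mice), and Cysltr2, a receptor for cysteinyl leukotrienes, among 7 other lipid mediator receptors (0.32, limma unadjusted p = 0.101). Among 11 phospholipases A2 and genes of arachidonate release it was Pla2g4c (0.14, limma unadjusted p = 0.316), at a linear mean of 20.0, under the minimum. The 3 measured relatives of Fpr2 were all lower in mean in EE mice (median log2 fold change -0.15), with the smallest p for Fpr-rs4 (-0.19, limma unadjusted p = 0.149). Their linear means were 18.4 (Fpr-rs3), 6.62 (Fpr-rs4) and 5.02 (Fpr-rs6), all far under the minimum of 100. Whether these values rise above the background of probe hybridization was not tested.

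**Figure D4:**
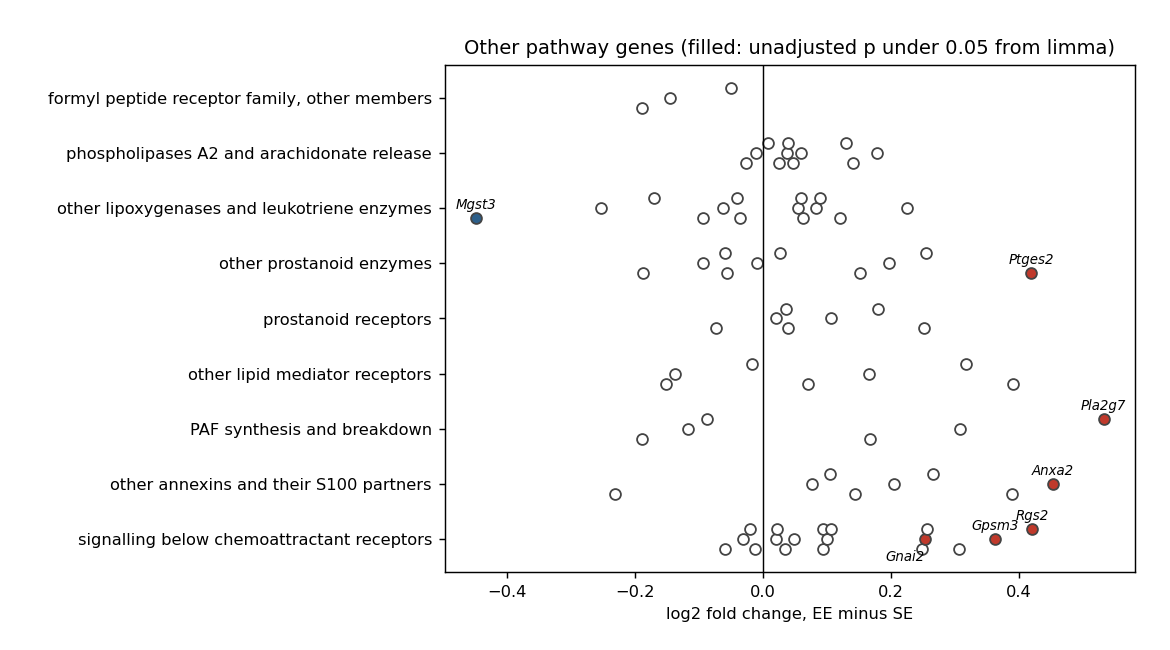
Log2 fold change, EE minus SE (horizontal axis), of the 84 measured pathway genes outside the set, 1 circle per gene, in 9 lists (vertical axis); filled circles passed an unadjusted p under 0.05 in limma, red higher and blue lower in EE. The 6 red genes spread over 4 lists, and Mgst3 (-0.45) is the only blue one.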

How the data were processed

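Whole blood RNA of 3 EE and 3 SE mice was measured on Affymetrix whole-transcript arrays, 1 array per mouse, and groups and mouse numbers were taken from the sample titles. The authors normalized the arrays with RMA (background model, quantile normalization, probe summary) of the affy package and deposited log2 values for 41345 probe sets; differences in total RNA are removed and small folds can be compressed. The paper's methods name the first version of the mouse gene ST array, whereas the table's probe annotation is that of the second, and neither scan dates nor batches are given in the sources used here. In the submitters' processing notes limma is named, without its version.

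A linear model without covariates was fitted to all probe sets (R 4.3.3, limma 3.58.1, functions lmFit and eBayes), with p-values adjusted over all of them. The annotation gave 1 gene symbol for 23521 probe sets, several for 1820 and none for 16004, and all 10 gene symbols were in the GRCm38.p6 gene table. Every probe set of the 10 genes is given, with the pathway genes at an unadjusted p under 0.05 (or the smallest p of a list with none), the 3 nearest genes in profile and the first marker genes. The genes and lists were chosen with earlier results of these data known. On simulated data for this comparison, with 200 changed probe sets among 41345, an unadjusted p under 0.05 was reached by 82.5% of those changed 1.5-fold and 93.5% of those changed 2-fold, and an adjusted p under 0.05 by 0% and 30%. The changed probe sets were drawn at random from the whole array, with independent noise at the SD of each. These rates are therefore averages over the array and not rates for the 10 probe sets. Fpr2, for example, at 1.49-fold had a limma unadjusted p of 0.0945. The number of arrays limits the precision. There were 14 alternatives: the methods' filter (an Entrez ID and a mean of at least 100, which kept 6154 probe sets), 100 in at least 3 arrays, quantile normalization, median centring, limma's trend and robust options, array weights, the mouse number as a block, the mean over the probe sets of a gene, and leaving out each of the 6 mice. Whether mice of 1 group came from separate enclosures is not given in the sources used here.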

Additional observations from a re-analysis of the deposited data

How the results depend on the processing

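The log2 fold changes of 9 of the 10 probe sets kept their sign under all alternatives that tested them; the exception was the second Alox5ap set, which was reversed without single mice and ranged from -0.0912 to 0.0541 over those settings. Of the 10 probe sets, 1 was higher in EE at an unadjusted p under 0.05 (limma), against 2 with array weights and 0 to 4 when 1 mouse was left out; none was lower in any setting, and no setting gave an adjusted p under 0.05 for any probe set on the array. Among the pathway genes, 1 was lower in EE, against 0 under the methods' filter and 0 with 100 in at least 3 arrays, because Mgst3 was not among the genes tested there, and 0 to 1 when 1 mouse was left out. The number higher was 6, against 2 to 8 when 1 mouse was left out, 4 under the methods' filter, 4 with 100 in at least 3 arrays, 4 with limma's trend and robust options and 9 with array weights. Over all probe sets, 1548 had an unadjusted p under 0.05, against 283 under the methods' filter, 369 with 100 in at least 3 arrays and 743 with the mean over the probe sets of a gene, where fewer were tested, 2604 with array weights, in which EE mouse 3 had the lowest weight (0.309), and 1330 (without SE mouse 3) to 2637 (without EE mouse 3) when 1 mouse was left out. Of the probe sets with an unadjusted p under 0.05, 38.7% were higher in EE, against 27.9% with 100 in at least 3 arrays and 49.9% without EE mouse 3. Same-numbered mice did not deviate together (r = -0.26, 0.05 and -0.31 over 6154 probe sets) and share only a number. With that number as a replicate block, 1 of the 10 probe sets was higher in EE, 5 pathway genes were higher and 1 was lower, 1562 probe sets had an unadjusted p under 0.05, and Anxa1 kept its log2 fold change of 0.62 (limma, unadjusted p = 0.00341). With 3 mice a group and a background of probe hybridization, differences of the probe sets under the minimum, Ltb4r1 and the second sets of Alox5 and Alox5ap, are the least certain. The same caution applies to Fpr2, which lay just above the minimum with an SE mean below it.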
